A study of Mus musculus with 8 samples.

Results

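The 42 genes described here carry glucose into the muscle cell, break it down to pyruvate and lactate, and store or release it as glycogen. They were taken by gene symbol from the array annotation and fall into 8 roles: glucose and lactate transporters (4 genes), the first steps of glycolysis from glucose to fructose bisphosphate (6), the later steps from aldolase to enolase (10), lactate dehydrogenase (2), pyruvate dehydrogenase and its kinases (5), the enzymes that make and remove fructose 2,6-bisphosphate (4), glycogen synthesis (5) and glycogen breakdown (6). All 42 have a probe among the 31733 named genes of the array, and 41 were among the 19674 genes tested. Pgk1, which encodes phosphoglycerate kinase, was not tested because its only spot was flagged as an outlier on 1 array. The array annotation exchanges 2 symbols relative to RefSeq: the probe it calls Pgm1 belongs to RefSeq's Pgm2 and the reverse, and the array's names are kept below.

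Satellite cells are the resident stem cells of muscle. Those used here came from a fast muscle of the hindlimb, the extensor digitorum longus, of Dnmt3a-KO and wild-type (WT) mice. Dnmt3a is a de novo DNA methyltransferase. The labels give all donors as male and 8 weeks old, with the WT animals as littermates. Cells of both genotypes spent 5 days in growth medium, were replated at equal number, and were harvested on day 2, 4, 5 or 6 of differentiation medium, which drives myoblasts to fuse into myotubes. Each of the 8 groups, WT day 2, day 4, day 5 and day 6 and Dnmt3a-KO day 2, day 4, day 5 and day 6, is 1 one-colour (Cy3) Agilent array. How the allele was made, and any Cre driver, are not given in the sources used here. The labels do not say whether different days came from different animals, and no group has a replicate array. The genotype p-values below therefore rest on how the difference between genotypes varied over the 4 days. Those for slope and interaction rest on the spread of arrays around a straight course over days. Either spread may be partly technical.

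Levels are given as relative signal, which is the processed spot signal over the 75th percentile of its array. That percentile lay between 719.5 and 1528 intensity units, and 61.6% to 67.4% of spots were well above background on each array. Below, slide stands for arrays that share a scan identifier in the file headers, and scan session for arrays read with the same software version. In this sense both day 2 arrays had a slide of their own. They were read on another scanner with another software version than the 6 later arrays. Neither had a processed spot signal at or below 0, while each later array had 4775 to 5797 such spots. Both day 2 arrays also had the Y-linked transcripts Ddx3y, Eif2s3y, Kdm5d and Uty well above background and Xist not, while the 6 later arrays had Xist well above background and none of those 4 transcripts. The 6 later arrays thus went against the label male, and both day 2 arrays differed from them in sex-linked transcripts. By these transcripts the day 2 cells and the later cells came from different donors. Dnmt3a itself had a relative signal of 0.519, 2.65, 2.50 and 2.04 in WT and 0.240, 0.524, 0.542 and 0.389 in Dnmt3a-KO on days 2, 4, 5 and 6. Its log2 difference was -2.01 ± 0.60 (SD over 4 days; limma adjusted p = 0.102), so it was lower on every day, as the labels have it, without passing the threshold of 0.05. Myotube markers were present throughout: Myog ranged from 62.9 to 93.2 and Ckm from 5.03 on WT day 2 to 17.8 on WT day 6. All 42 genes were well above background on all of their usable arrays, except Slc16a1, which was on 7 of 8.

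Glycolysis is the main fast source of ATP in fast-twitch muscle. Glucose enters through the transporters Glut1 and Glut4, is trapped by hexokinase, and is committed to breakdown by phosphofructokinase. Most steps are carried by several isozymes, and muscle typically exchanges ubiquitous or fetal forms for muscle forms as it differentiates. Glycogen phosphorylase, switched on by phosphorylase kinase, feeds stored glucose into the same pathway. At its end, pyruvate dehydrogenase kinases decide how much pyruvate goes on to the mitochondria rather than to lactate.

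Promoters are shown for 3 genes: Hk2, the hexokinase with the steadiest genotype difference below, Pdk4, the gene with the steepest course over days, and Ldha, which held the most matches to the motif ACGTG among the genes matched. ACGTG is the core letters of the hypoxia response element and is contained in the E-box CACGTG. Each line gives the 250 bases before a RefSeq start on the gene's own strand, 5′ to 3′, in build GRCm38.p6, with capitals for the matches to ACGTG on either strand. Hk2 is at chr6:82774455-82774704 (minus strand), Ldha at chr7:46845554-46845803 (plus strand) and Pdk4 at chr6:5496279-5496528 (minus strand).
Hk2: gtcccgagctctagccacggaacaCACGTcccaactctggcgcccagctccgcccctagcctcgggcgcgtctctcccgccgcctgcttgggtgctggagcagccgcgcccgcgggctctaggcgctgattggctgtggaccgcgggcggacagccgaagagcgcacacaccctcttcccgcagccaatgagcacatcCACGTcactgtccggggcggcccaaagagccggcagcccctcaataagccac
Ldha: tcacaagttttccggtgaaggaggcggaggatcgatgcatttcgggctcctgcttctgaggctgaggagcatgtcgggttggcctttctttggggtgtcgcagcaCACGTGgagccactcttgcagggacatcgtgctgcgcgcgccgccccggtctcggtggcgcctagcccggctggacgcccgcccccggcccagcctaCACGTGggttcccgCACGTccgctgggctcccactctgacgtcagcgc
Pdk4: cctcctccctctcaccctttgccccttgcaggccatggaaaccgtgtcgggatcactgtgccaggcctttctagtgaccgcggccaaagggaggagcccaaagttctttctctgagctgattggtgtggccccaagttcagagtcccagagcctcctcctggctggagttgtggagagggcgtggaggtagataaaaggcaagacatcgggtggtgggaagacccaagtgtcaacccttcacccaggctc

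The Hk2 stretch holds 2 matches, at 226 to 222 and 52 to 48 bases before the start. The Ldha stretch holds 5 when both strands are counted, since each CACGTG gives an overlapping pair, and the Pdk4 stretch holds none. RefSeq has a second Ldha start, and the 250 bases before it (chr7:46846832-46847081) hold 0 matches and 9 CG dinucleotides. The RefSeq table matched 41 of the 42 genes with 60 promoters; Slc2a4 was not matched. ACGTG was present in 23 of these 60 promoters (38.3%), against 16.6% of all 32851 promoters in the table. Counted by gene, 19 of 41 genes (46.3%) had it in at least 1 promoter, against 18.5% of 27025 genes. The myogenic E-box CAGCTG was in 15% of these promoters and 13% of all, and the MEF2-type motif in 3.33% and 3.2%, both searched on either strand. The median number of CG dinucleotides, the sites a DNA methyltransferase acts on, was 12.5 per stretch in these promoters and 6 in all. ACGTG itself holds a CG, so these shares are not independent of CG content, and promoters of 1 gene can share bases. The stretch of Hk2 held 25 CG dinucleotides, that of Ldha 25 and that of Pdk4 6. No methylation was measured here.

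**Figure D1:**
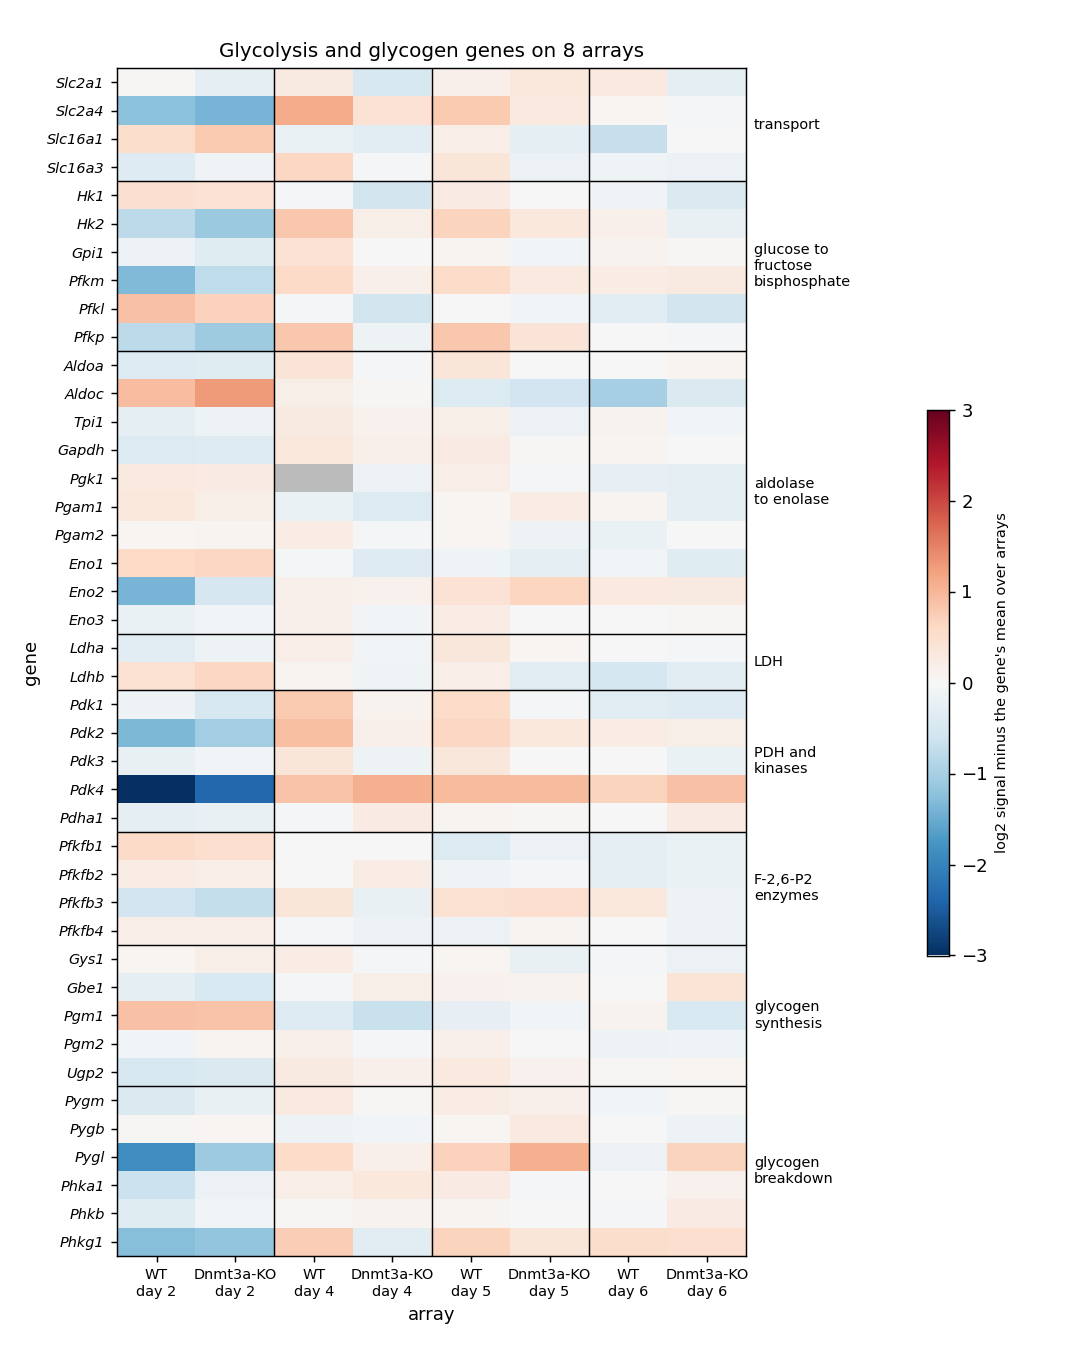
Log2 signal of each of the 42 genes (rows, grouped by role) on each of the 8 arrays (columns), minus the gene's own mean over arrays; red is above and blue below that mean, and the grey cell is the flagged Pgk1 spot. The day 2 columns differ most from the others: Pdk4, Pfkm, Pdk2, Phkg1 and Pygl are low there, and Aldoc and Pfkl are high.

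The first comparison was between genotypes on the same day. Averaged over the 4 days, 29 of 41 genes were lower (70.7%, against 53% of all genes) and 12 higher in Dnmt3a-KO. Their median log2 difference was -0.10, against -0.012 over all genes tested. The sign of the median over the 41 genes turned, to 0.116, under 1 of the 5 other background and scaling choices. That choice, normexp, moved the median over all genes to -0.364. None of the 41 passed an adjusted p of 0.05 (limma, day as a block, Benjamini-Hochberg over all genes), and 0.0102% of all genes, 2 in number, did. At an unadjusted p under 0.05 there were 7 of 41 genes (17.1%) and 2531 of all genes (12.9%). The 7 were the same genes that were lower in Dnmt3a-KO on each of the 4 days: Slc2a4, Hk1, Hk2, Gpi1, Pfkl, Pfkp and Pdk1. A difference of 1 sign on all 4 days toward lower values was found in 11.5% of all genes and in 7 of these 41. The same toward higher values was found in 10.9% of all genes and in 1 of these 41, Pdk4.

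The difference was not of one size over days. The median over the 41 genes was 0.059, -0.27, -0.18 and -0.036 on days 2, 4, 5 and 6, against medians of 0.0073, -0.017, -0.048 and 0.024 over all genes. On the same days 15, 34, 30 and 23 of the 41 genes were lower in Dnmt3a-KO. Without day 4 the median over days was -0.04, and without day 2 it was -0.19, so these days moved it most. Each single day rests on 1 array per genotype and has no test. Quantile scaling left 24 of 41 genes lower over all days and 32 lower on day 4.

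**Figure D2:**
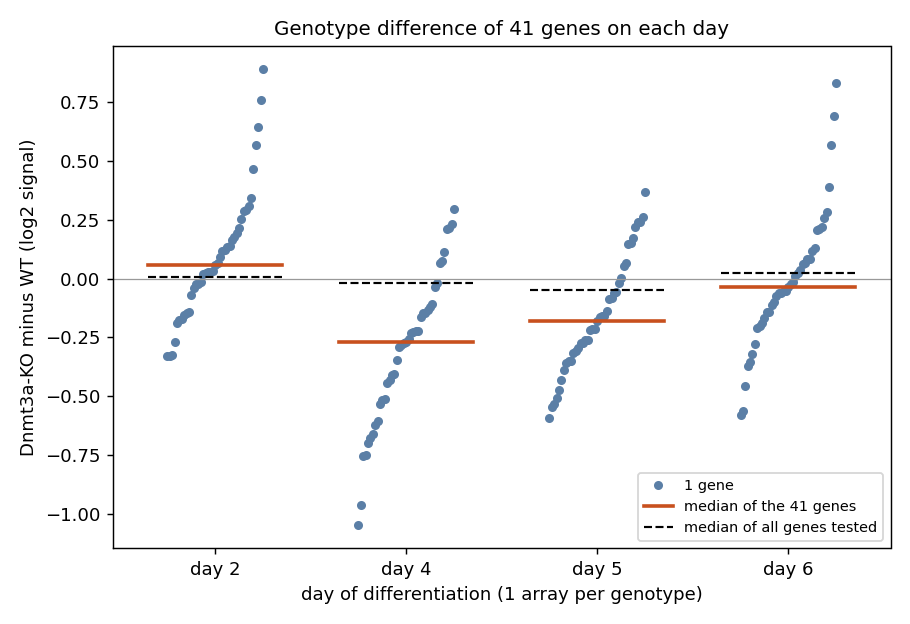
Dnmt3a-KO minus WT difference in log2 signal on each day, with 1 array per genotype; points are the 41 genes tested in order of their value, the thick line is their median and the dashed line the median of all 19674 genes tested. The cloud sits lowest on day 4, where 34 of 41 genes are below 0, and straddles 0 on day 2 and day 6. With background correction by normexp the day 6 median of the 41 genes is 0.809, against -0.708 over all genes.

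The enzymes that take glucose to fructose bisphosphate held most of the genes that were lower on all 4 days. These were 5 of its 6 genes, against 11.5% of all genes, and 2 of 6 under normexp background correction. The median log2 difference of this role was -0.27, which turned to 0.03 under normexp. Hk2, the insulin-responsive hexokinase of muscle (probe at chr6:82675056-82675115, minus strand, mm9), had a relative signal of 0.446, 1.33, 1.23 and 0.851 in WT on days 2, 4, 5 and 6. In Dnmt3a-KO it was 0.356, 0.868, 0.958 and 0.657. WT was the higher array on every day, although the ranges of the 2 genotypes over days overlap. The log2 difference was -0.42 ± 0.13 (SD over 4 days; limma adjusted p = 0.189), the smallest spread for its size among the 7 genes, and it stayed between -0.45 and -0.35 when any 1 day was left out. Hk1, the ubiquitous hexokinase, had 12.1, 8.52, 10.2 and 7.99 in WT and 11.8, 5.88, 8.52 and 6.40 in Dnmt3a-KO. Its difference of -0.29 ± 0.20 (limma adjusted p = 0.347) was near 0 on day 2 (-0.04), and it turned to 0.245 under normexp. A second Hk1 probe gave -0.20 ± 0.19.

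Gpi1, glucose-6-phosphate isomerase, had a relative signal of 92.8, 141, 112 and 113 in WT and 82.1, 105, 98.8 and 108 in Dnmt3a-KO, a difference of -0.21 ± 0.15 (limma adjusted p = 0.387). Phosphofructokinase, the committing step, has a muscle, a liver and a platelet form. Pfkp, the platelet form, had 0.218, 0.658, 0.662 and 0.382 in WT and 0.181, 0.338, 0.491 and 0.367 in Dnmt3a-KO. The gap was widest on day 4 (-0.96) and almost closed on day 6 (-0.06). Over the 4 days it was -0.43 ± 0.39 (limma adjusted p = 0.372), and a second Pfkp probe gave -0.51 ± 0.34. It was -0.254 without day 4 and -0.917 under normexp. Pfkl, the liver form, had 1.67, 0.881, 0.897 and 0.717 in WT against 1.47, 0.618, 0.863 and 0.619 in Dnmt3a-KO, a difference of -0.24 ± 0.19 (limma adjusted p = 0.388) that was -0.152 without day 4. Pfkm, the muscle form, did not share this direction on every day: it was 0.57 higher in Dnmt3a-KO on day 2 and 0.40 lower on day 4, with a mean of -0.01 ± 0.43.

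Among the transporters, Slc2a4, the insulin-responsive Glut4 of muscle and fat, was lower in Dnmt3a-KO on all 4 days. Its relative signal was 2.08, 10.7, 8.49 and 5.13 in WT and 1.86, 6.60, 5.98 and 4.75 in Dnmt3a-KO. The log2 difference was largest on day 4 (-0.70) and day 5 (-0.51) and was -0.37 ± 0.28 over days (limma adjusted p = 0.344); under normexp it was 0.05. Slc2a1, the ubiquitous Glut1, was lower on 3 days and higher on day 5 (-0.38 ± 0.39). Slc16a3, the lactate exporter Mct4 of fast muscle, was 0.66 lower on day 4 and 0.29 higher on day 2, with a mean of -0.24 ± 0.44. Slc16a1, which encodes the lactate transporter Mct1, stayed at 0.02 to 0.0556 on all arrays, and its difference of 0.08 ± 0.50 was well inside its spread.

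From aldolase to enolase, no gene of the 9 tested had 1 sign on all 4 days. Their mean differences ran from -0.18 for Eno1 to 0.27 for Eno2, with a median of -0.11 that turned to 0.44 under normexp. Aldoa, the muscle aldolase, had a relative signal of 321, 554, 550 and 423 in WT and 328, 408, 420 and 448 in Dnmt3a-KO, so WT was higher on days 4 and 5 only. Gapdh, often used as a reference gene, differed by -0.11 ± 0.11, and 4 other usable Gapdh probes gave -0.12 to -0.06. The Gapdh probe used is placed on chromosome 8 in the array file and its 6 other probes on chromosome 6 (mm9). Gapdh and several of its neighbours in the pathway have near-identical processed copies in the genome, so their signals may include those copies. Pgk1 had differences of -0.04, -0.21 and -0.06 on days 2, 5 and 6, those with both spots usable, and was untested.

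For lactate dehydrogenase the difference was -0.10 ± 0.23 for Ldha, the muscle subunit, and -0.10 ± 0.36 for Ldhb, the heart subunit. Both means lie inside their spread over days, while 2 other Ldha probes gave -0.20 ± 0.18 and -0.23 ± 0.19. The pyruvate dehydrogenase kinases, which inhibit entry of pyruvate into the mitochondrial cycle, differed among themselves. Pdk1, a hypoxia-responsive kinase, had a relative signal of 0.26, 0.496, 0.421 and 0.231 in WT and 0.207, 0.31, 0.279 and 0.221 in Dnmt3a-KO, a difference of -0.41 ± 0.28 (limma adjusted p = 0.319) that was -1.03 under normexp. Pdk4, the kinase induced by fasting and fatty acids, was the single gene higher on all 4 days, by 0.64, 0.21, 0.003 and 0.21, or 0.27 ± 0.27 (limma adjusted p = 0.429); the day 5 arrays were equal within rounding, at 15.5 each. Without day 2 the mean was 0.141 and under normexp 0.573, and no gene of this role was higher on all 4 days under either normexp correction or in the deposited value table. Pdk2 and Pdk3 had means of -0.20 ± 0.45 and -0.23 ± 0.28. Pdha1, the catalytic subunit that the kinases phosphorylate, differed by 0.14 ± 0.17.

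The 4 bifunctional enzymes that set fructose 2,6-bisphosphate, the activator of phosphofructokinase, had means between -0.29 (Pfkfb3) and 0.09 (Pfkfb2). A second Pfkfb3 probe, well above background on 4 arrays, gave 0.14 ± 0.45, against -0.29 ± 0.30 for the brighter probe. In glycogen synthesis the means ran from -0.18 for Pgm1 to 0.10 for Gbe1, the branching enzyme, and Gys1, the muscle glycogen synthase, had -0.15 ± 0.19. In glycogen breakdown they ran from -0.32 for Phkg1 to 0.39 for Pygl, with -0.0003 ± 0.21 for Pygm, the muscle phosphorylase. Phkg1, the catalytic subunit of phosphorylase kinase in muscle, was the only one of the 41 genes at 2-fold or more on any day. At least 2-fold lower in Dnmt3a-KO were 1.14%, 3.08%, 1.82% and 1.89% of all genes on days 2, 4, 5 and 6, and at least 2-fold higher 1.89%, 1.46%, 0.915% and 1.3%. Phkg1 had a relative signal of 0.0859 in WT and 0.0415 in Dnmt3a-KO on day 4 (-1.05). On the other days its genotype difference was 0.09, -0.31 and -0.02.

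Markers of other cell states moved between the same arrays. Of 15 proliferation markers tested, 14 (93.3%, against 53% of all genes) had a lower mean in Dnmt3a-KO. Their medians were -0.97, -1.13, -0.01 and -0.84 on days 2, 4, 5 and 6. Their summed relative signal was 61.5, 24.9, 23.7 and 26.0 in WT and 33.0, 26.6, 25.1 and 25.1 in Dnmt3a-KO. On day 4 much of that sum was Rrm2 (9.90 in WT and 16.25 in Dnmt3a-KO), the only tested marker of this list with a higher mean in Dnmt3a-KO. Fibroblast and fibro-adipogenic markers had medians of -0.02, -1.61, 0.12 and -1.18, with Lum and Dpt not above background anywhere. Their sums were 62.6, 129, 189 and 158 in WT against 110, 51.6, 204 and 85.8 in Dnmt3a-KO. On day 2 much of either sum was Col1a2 (24.54 in WT and 74.93 in Dnmt3a-KO). The 13 myotube markers measured, all well above background on all arrays, had medians of 0.38, -0.17, -0.09 and 0.07, and sums of 551, 1298, 1310 and 1207 in WT and 675, 1132, 1213 and 1247 in Dnmt3a-KO. Smooth muscle and pericyte markers had medians of 0.37, -0.53, -0.09 and -0.55 on the same days. Their sums were 149, 238, 253 and 212 in WT against 157, 143, 233 and 145 in Dnmt3a-KO. Most of the day 2 sums was Acta2 (120.5 in WT and 116.6 in Dnmt3a-KO). Macrophage markers summed to 10.4 to 21.0 in WT and 8.98 to 21.4 in Dnmt3a-KO, with Cd68, Lyz2, Tyrobp and Aif1 not above background. Adipocyte markers had medians of 0.06, -0.40, 0.16 and -0.40. Their sums were 1.11, 2.71, 2.68 and 2.04 in WT against 1.23, 2.07, 1.93 and 1.60 in Dnmt3a-KO. Of these, Cfd was not above background, and Adipoq was on 3 arrays and Cidec and Retn on 2. Endothelial markers summed to 2.55 to 4.14 in WT and 2.99 to 4.03 in Dnmt3a-KO. Among them Tek, Tie1 and Esam were not above background, and Cdh5 was on 3 arrays. Most of the macrophage sum was 1 gene, Itgam (20.34 of 21.0 on WT day 2), and most of the endothelial sum was Kdr (2.225 of 2.55). The part of all these marker lists in the genotype differences was not tested. In RNA from whole cultures, fewer cells of a type and less RNA per cell cannot be told apart.

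The second comparison followed the genes over the days of differentiation, as a log2 slope per day over all 8 arrays with genotype as a covariate. Past a limma adjusted p of 0.05, 8 of 41 genes rose (19.5%; 26% of all genes rose) and 7 fell (17.1%; 19.4% of all genes fell), shares that are near or below those of the array as a whole. The 8 that rose were Pdk4, Pygl, Phkg1, Pdk2, Pfkm, Eno2, Pfkfb3 and Gbe1, and the 7 that fell were Aldoc, Pfkl, Slc16a1, Ldhb, Eno1, Pfkfb1 and Pfkfb2. A correction by normexp on the foreground alone, added after the data were seen, gave 13 and 6. Without the day 2 arrays none of the 41 genes and none of all 19674 genes passed, and the scan session as a fixed block had the same effect. The fit without day 2 has fewer arrays and 3 residual degrees of freedom, so lost calls alone cannot show dependence on day 2. Over days 4 to 6 the slopes of Aldoc (-0.41), Ldhb (-0.20) and Pfkfb2 (-0.18) stayed near or above their full size. Those of Pfkm, Pdk2, Pdk4 and Pygl turned negative, and the other called genes had smaller slopes. Without day 5, 0 rose and 1 fell, and without day 6, 15 rose and 5 fell. Day 2 differs from the other days in slide, scanner, software version, spots at or below 0 and sex-linked transcripts. Time and these differences cannot be told apart for any step between day 2 and day 4. Days 4 and 5 shared a slide and day 6 had its own, so a change between day 5 and day 6 cannot be told apart from a change of slide either.

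**Figure D3:**
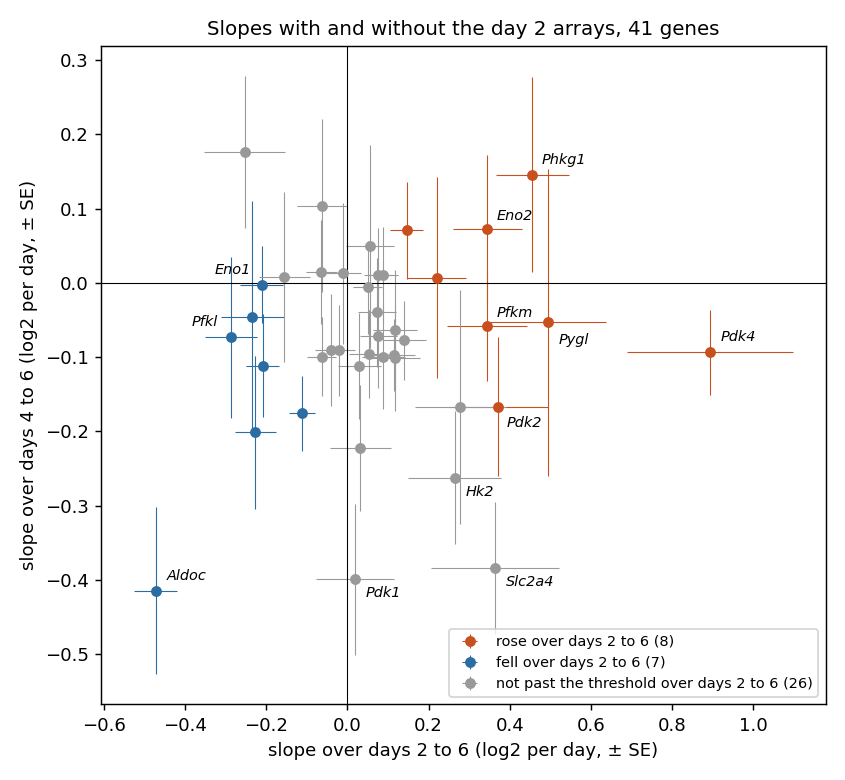
Slope of each of the 41 genes tested over days 2 to 6 (horizontal axis) and over days 4 to 6 alone (vertical axis), in log2 units per day with standard errors; colours mark genes that rose or fell past the threshold over days 2 to 6. Pdk4, Pfkm, Pdk2 and Pygl rose over the whole course and have slopes below 0 on the vertical axis, while Aldoc is below 0 on both.

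Isozymes of 1 step took different courses. Of the phosphofructokinases, Pfkm rose at 0.34 ± 0.10 log2 per day (SE; limma adjusted p = 0.0289), from 15.6 and 23.2 on day 2 (WT and Dnmt3a-KO) to between 43.9 and 58.1 on the 6 later arrays. Pfkl fell at 0.29 ± 0.06 per day (limma adjusted p = 0.0162), from 1.67 and 1.47 on day 2 to between 0.618 and 0.897 later. For both genes the day 2 arrays lay outside the range of the later ones. Pfkp had a slope of 0.28 ± 0.11 (limma adjusted p = 0.078), and its second probe gave 0.02. Over days 4 to 6 the slopes were -0.06 ± 0.07 for Pfkm and -0.07 ± 0.11 for Pfkl, so most of either course lay between day 2 and day 4.

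Of the enolases, Eno1, the ubiquitous form, fell (slope -0.21 ± 0.05, limma adjusted p = 0.0205), from 81.9 and 83.6 on day 2 to between 41.5 and 52.7 later. Eno2, the form best known from neurons, rose (0.35 ± 0.08, limma adjusted p = 0.0191), from 0.102 and 0.19 to between 0.295 and 0.424. Eno3, the muscle enolase, ranged from 111 to 150 over all 8 arrays with a slope of 0.05 ± 0.04 that did not pass. Of the aldolases, Aldoc, the brain form, fell at 0.47 ± 0.05 per day (limma adjusted p = 0.00821). The WT signal was 0.59, 0.35, 0.233 and 0.154 on days 2, 4, 5 and 6, and the Dnmt3a-KO signal 0.748, 0.319, 0.208 and 0.229. The slope of Aldoc over days 4 to 6 was -0.41 ± 0.11, without passing (limma adjusted p = 0.577). Aldoa, the muscle form, had a slope of 0.12 ± 0.06 (limma adjusted p = 0.115). The mutase pair Pgam1 and Pgam2 had slopes of -0.06 and -0.04, Gapdh 0.11 and Tpi1 0.05, none past the threshold.

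Ldhb, the heart subunit of lactate dehydrogenase, fell (slope -0.23 ± 0.05, limma adjusted p = 0.0154), from 5.53 and 6.19 on day 2 to 2.81 and 3.25 on day 6. Ldha, the muscle subunit, had 0.07 ± 0.05 and ranged from 111 to 178. One other Ldha probe had a slope of 0.14 and the third -0.03. Of the lactate transporters, Slc16a1 fell (slope -0.23 ± 0.08, limma adjusted p = 0.0429), which turned to 0.0757 under the foreground normexp, and Slc16a3 did not pass (0.03 ± 0.08). Slc16a3 had its highest value, 5.64, on WT day 4.

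**Figure D4:**
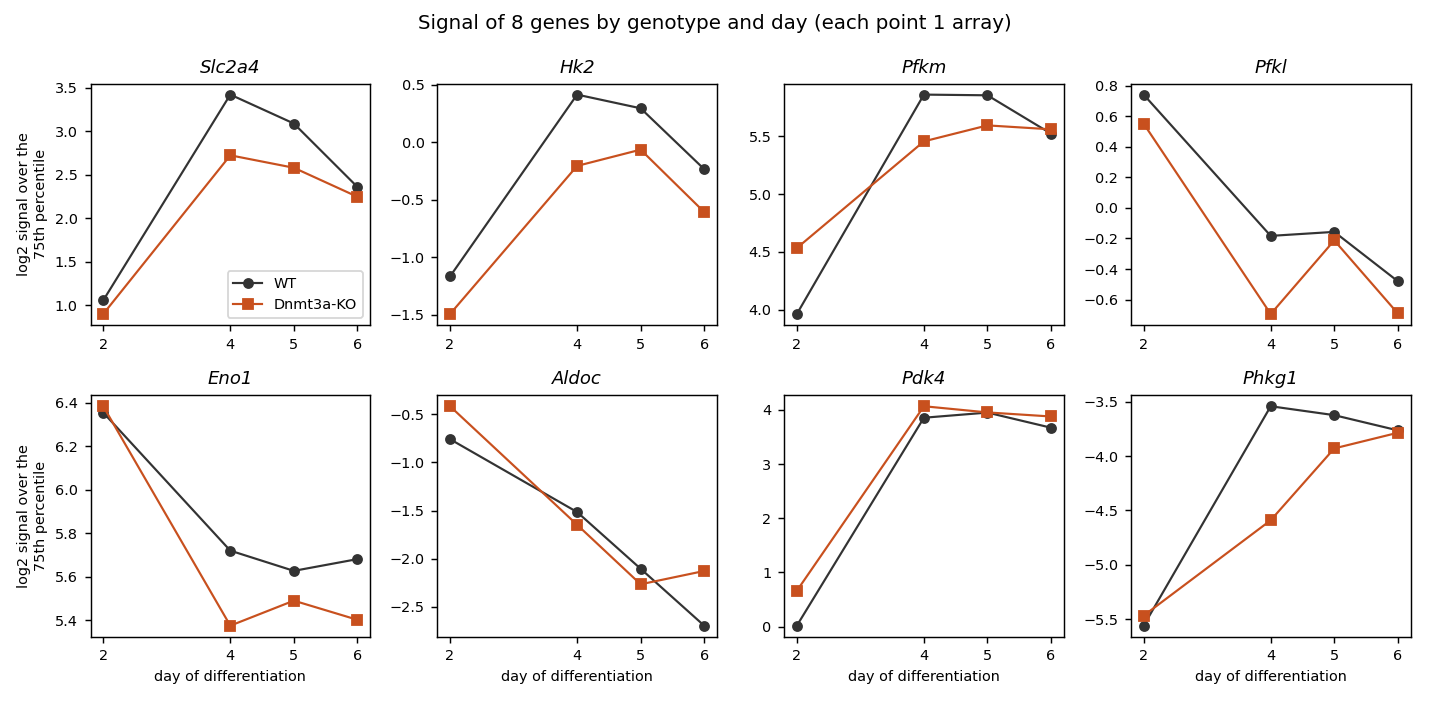
Log2 signal over the 75th percentile of the array for 8 genes by day of differentiation, with 1 array per point, WT as circles and Dnmt3a-KO as squares; each panel has its own vertical range. Hk2 lies lower in Dnmt3a-KO on each day, Slc2a4 is highest on day 4 in both genotypes, and Pdk4 and Pfkm step up between day 2 and day 4 and vary less afterwards.

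The steepest course among the 41 genes belonged to Pdk4, with a slope of 0.89 ± 0.20 (limma adjusted p = 0.0166). Its relative signal was 1.01 in WT and 1.58 in Dnmt3a-KO on day 2, and between 12.7 and 16.8 on the 6 later arrays, so the day 6 mean was 10.8-fold above the day 2 mean. After day 4 the slope was -0.09 ± 0.06. Pdk2, the other kinase that rose (0.37 ± 0.12, limma adjusted p = 0.0439), went from 0.945 and 1.17 to between 2.69 and 4.52, and its second probe had a slope of 0.37 as well. Pdk1 and Pdk3 had slopes of 0.02 and 0.03. Pdk1 was highest on WT day 4 and WT day 5 and near its day 2 level on day 6, with a slope over days 4 to 6 of -0.40 ± 0.10 (limma adjusted p = 0.577).

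Glut4 and hexokinase 2 likewise peaked in the middle. Slc2a4 went from 2.08 and 1.86 on day 2 to 10.7 and 6.60 on day 4 and back to 5.13 and 4.75 on day 6, and its slope over the whole course (0.36 ± 0.16) did not pass (limma adjusted p = 0.094). Hk2 had its highest WT value on day 4 and its highest Dnmt3a-KO value on day 5, with a slope of 0.26 ± 0.11 (limma adjusted p = 0.094). Over days 4 to 6 these slopes were -0.38 ± 0.09 and -0.26 ± 0.09. Slc2a1 and Hk1, the ubiquitous forms, had slopes of 0.06 and -0.16, neither past the threshold. Over days 4 to 6 as a whole 29 of 41 genes had a negative slope, against 9447 of all 19674 genes. The median slope of the 41 genes was -0.07 per day, against 0.005 over all genes. It was negative under all 5 other background and scaling choices (-0.17 to -0.05). None of the 41 passed the threshold (0% of all genes did). In the same limma fit 6 of 41 genes (14.6%) and 8% of all genes had an unadjusted p under 0.05.

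Of the regulators of fructose 2,6-bisphosphate, Pfkfb3, the inducible form, rose (0.22 ± 0.07, limma adjusted p = 0.0443), while Pfkfb1 (-0.21 ± 0.04, limma adjusted p = 0.0134) and Pfkfb2 (-0.11 ± 0.03, limma adjusted p = 0.0294) fell and Pfkfb4 (-0.06 ± 0.04) did not pass. In glycogen synthesis Gbe1 rose (0.15 ± 0.04, limma adjusted p = 0.0278). Gys1, Ugp2, Pgm1 and Pgm2 had slopes of -0.06, 0.14, -0.25 and -0.02, none past the threshold. In glycogen breakdown Pygl, the liver phosphorylase, rose (0.49 ± 0.14, limma adjusted p = 0.0296), from 0.023 and 0.0389 on day 2 to between 0.074 and 0.173 later. Pygm, the muscle phosphorylase, ranged from 13.9 to 23.1 with a slope of 0.09 ± 0.05, and Pygb, the brain form, from 0.405 to 0.556 with a slope of -0.01. Phkg1 rose (0.46 ± 0.09, limma adjusted p = 0.0135), from 0.0212 and 0.0226 on day 2 to 0.0736 and 0.0725 on day 6; a dimmer second probe, not above background on any array, had a slope of 0.07. The other kinase subunits, Phka1 and Phkb, had slopes of 0.12 and 0.08.

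The third comparison asked whether the course over days differed between the genotypes. The interaction of genotype and day passed the threshold in 0 of 41 genes and in 0% of all genes (limma), and at an unadjusted p under 0.05 it was found in 0 of 41 and 218 of all 19674. Pfkm gives an example of the sizes involved, with a slope of 0.42 per day in WT and 0.27 in Dnmt3a-KO, and Eno2 another, with 0.45 and 0.24. Their interaction terms were -0.15 ± 0.21 and -0.21 ± 0.16 (SE), both within 2 standard errors of 0.

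Other genes of the pathway were counted in the same fits, and none passed for genotype in any of the 6 lists. Among 28 further glycolysis and glycogen genes tested, 11 rose (39.3%) and 3 fell (10.7%) over days, against 26% and 19.4% of all genes, the shares to set beside each list below. Fbp2, the muscle fructose bisphosphatase, and Ppp1r3c, a subunit that targets phosphatase to glycogen, had the steepest slopes up, at 1.22 ± 0.31 and 1.22 ± 0.31 log2 per day. Fbp2 was not well above background on either day 2 array, so its slope depends on the floor set there, and it was 0.666 with foreground normexp, 0.148 with normexp and 0.914 in the deposited value table. Ppp1r3c went from 0.0958 and 0.142 on day 2 to 4.98 and 3.32 on day 4, and both turned to -0.26 without day 2. Phka2, the liver kinase subunit, fell at 0.30 ± 0.05. Of 12 genes for pyruvate entry into mitochondria 4 rose (33.3%), led by the pyruvate carrier subunit Mpc1 (0.31 ± 0.07) and Lipt1 (0.27 ± 0.06), and 2 fell (16.7%), pyruvate carboxylase Pcx (-0.20 ± 0.04) and the phosphatase Pdp2 (-0.16 ± 0.05).

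Of 8 pentose phosphate genes, Tkt (0.48 ± 0.12) and Rpia (0.24 ± 0.06) rose (25%) and 0 fell. In the tricarboxylic acid cycle 15 of 16 genes (93.8%, against 53% of all genes) had a lower mean in Dnmt3a-KO. Their median difference of -0.13 turned to 0.396 under normexp. Of these 16 genes 4 were lower on all 4 days (25%, against 11.5% of all genes). That count was 10 with foreground normexp and 1 with normexp. Over days 3 of the 16 rose (18.8%), among them Idh3b (0.24 ± 0.07) and Sucla2 (0.14 ± 0.03), and 1 fell (6.25%), Suclg2 (-0.21 ± 0.05). Of 16 hypoxia-response genes outside glycolysis 3 rose (18.8%), led by the prolyl hydroxylases P4ha2 (0.78 ± 0.15) and Egln1 (0.31 ± 0.06), and 3 fell (18.8%), among them P4ha1 (-0.20 ± 0.05) and the demethylase Kdm3a (-0.17 ± 0.04). Their median genotype difference was -0.08, which turned to 0.154 under normexp, and 2 were higher and 0 lower on all 4 days (12.5% and 0%, against 10.9% and 11.5% of all genes). Of 26 regulators of glucose metabolism 7 rose (26.9%), led by the glucose-sensing factor Mlxipl (0.85 ± 0.28) and its target Txnip (0.84 ± 0.14), and 4 fell (15.4%), among them the coactivator Ppargc1b (-0.43 ± 0.08) and the insulin receptor substrate Irs1 (-0.22 ± 0.05). Over the same days 8 of 13 myotube markers rose (61.5%) and 12 of 15 proliferation markers fell (80%), with both day 2 sums below all later ones for the first list and above them for the second.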

How the data were processed

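Spot intensity came from the scanner files that the authors deposited, made with Agilent Feature Extraction 11.0.1.1 on day 2 and 9.5.3.1 later, per the file headers; the submitters' processing notes name Feature Extraction 9.5. The deposited value table holds a score, the processed signal times 100 over each array's 75th percentile, rounded (column medians 6), and served as an alternative. Its values have negatives set to 0.

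Each processed intensity was divided by its array's 75th percentile over 43020 non-control spots, floored at 0.00763 and put on a log2 scale. Outlier-flagged spots were left out, spots of a probe averaged, and the brightest of a gene's probes used (the 42 genes have 63 probes). A gene entered the tests if 4 or more of the 8 arrays had it well above background. The package limma 3.58.1 under R 4.3.3 gave all p-values (lmFit, eBayes, Benjamini-Hochberg over all genes, threshold 0.05; scripts were tested on simulated data). The genotype fit had day as a block (3 residual degrees of freedom), the slope fit genotype as a covariate (5). Of 39429 probes, 26055 matched RefSeq (GRCm38.p6) by accession for symbols; probe coordinates are those of the file headers' build, mm9. The number of arrays limits the precision.

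The genes and lists were chosen with earlier results of these data known. Named for genotype were up to 6 genes per direction with 1 sign on all 4 days, for slope all genes past the threshold with their isozymes, and up to 2 per direction from each pathway list; other genes named were chosen after their values were seen. One gene that the rule picks is counted in its list but not reported here. Alternatives covered scaling, background, probe filters, probe choice, eBayes options, blocks and leaving out each day.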

Additional observations from a re-analysis of the deposited data

How the results depend on the processing

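No gene of the 41 passed for genotype or interaction under any alternative run, while the count over all genes for genotype ran from 0 to 128. The median genotype difference was -0.101 and ran from -0.188 to -0.0392 when 1 day was left out. It reversed to 0.116 with normexp on the median spot and median local background signals. That correction follows a few spots whose local background is far brighter than the spot (lowest difference -65520 on WT day 2 and -65170 on WT day 6), and it moved the median of all genes to -0.364 from -0.0117. It also turned Slc2a4 to 0.0456 and Hk1 to 0.245 for genotype, and the slope of Phkg1 to -0.0324. The same 7 genes were lower on all 4 days under the other 4 background and scaling choices, and 3 of the 7 were under normexp.

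The count of rising genes, 8, was 0 with normexp, 13 with normexp on the foreground alone (chosen after seeing the data), 4 without a filter on dim probes, and 0 with slide as a random block, scan session as a fixed block, WT arrays alone or Dnmt3a-KO arrays alone; leaving out 1 day gave 0 to 15. The count of falling genes, 7, was 0 with normexp, 2 with slide as a random block, and 0 with scan session as a block, WT alone or Dnmt3a-KO alone; leaving out 1 day gave 0 to 9. Fewer arrays and degrees of freedom enter the last of these. Slopes that reversed without day 2, and equally with scan session as a block, are given with their other extreme, reached without day 6: Pfkm -0.058 to 0.522, Pdk2 -0.167 to 0.597, Pdk4 -0.0934 to 1.29, Pygl -0.0532 to 0.802, Fbp2 -0.263 to 1.76, Ppp1r3c -0.262 to 1.84, Pdp2 0.0271 to -0.236, Idh3b -0.0751 to 0.377 and Mlxipl -0.387 to 1.46; Slc16a1 reached 0.0757 with foreground normexp. Of the named slopes under all alternatives, 332 values kept their call, 241 lost it and 20 reversed. The causes were not tested. The genotype fit already pairs the genotypes by day, and the labels number no replicates to pair by.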
